A study of Mus musculus with 6 samples.

Results

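The genes described here are 10 genes of retinoic acid metabolism and signalling, followed in haematopoietic stem cells (HSCs) of the mouse, which live in the bone marrow and renew the blood. They were chosen by symbol: the retinoid enzymes Rdh10, Aldh1a1, Aldh1a7 and Cyp26b1, the receptors Rara, Rarb, Rarg, Rxra and Rxrb, and the retinoid-induced receptor Gprc5c. All 10 were found among the 49585 genes of the count tables, and all 10 had enough reads to be tested.

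RNA of sorted HSCs was sequenced in bulk from untreated C57BL/6 mice aged 8 to 16 weeks. HSCs were taken from bone marrow as lineage-negative, Kit-positive and Sca-1-positive cells that were also CD48-negative, CD150-positive, CD34-negative and CD201-positive, and were then divided by surface CD38, an enzyme that consumes NAD. There were 3 libraries of CD38-positive (high) and 3 of CD38-negative (low) cells, each a pool of 10 mice, and the design text matches them in 3 pairs. The series concerns CD38 activity and HSC dormancy, a long-lasting quiescent state, and the comparison asks which transcripts differ between the populations.

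Retinoic acid is made from vitamin A in a pair of steps. Retinol dehydrogenases such as RDH10 oxidise retinol to retinaldehyde, and aldehyde dehydrogenases of the ALDH1A class oxidise that to retinoic acid. Enzymes of the CYP26 family break it down and so limit the signal inside a cell. In the nucleus, retinoic acid binds receptors of the RAR family, which sit on DNA together with RXR partners and switch target genes on. In HSCs, retinoic acid signalling has been linked to dormancy, and Gprc5c, which encodes an orphan receptor of the G protein-coupled class, marks dormant cells.

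Libraries held 16771180 to 18558610 counts, so that 3 reads, taken here as the smallest countable level, correspond to 0.166 to 0.183 CPM (reads scaled to a common library size). All 14 HSC marker genes examined had reads in every library, and their summed level was 1250 to 2110 CPM in CD38-positive and 1400 to 2710 CPM in CD38-negative libraries. That sum includes Cd34 and Cd48, whose products the sort gated against, and Cd38, which divided the populations. Mean levels in CD38-positive and CD38-negative libraries were 246 and 237 CPM for Cd34 and 85.7 and 77.5 CPM for Cd48. Markers of cells that the sort should remove were also present. The 12 granulocyte markers summed to 71100 to 161000 CPM in CD38-positive and 80600 to 129000 CPM in CD38-negative libraries, and the 9 erythroid markers to 2590 to 9170 and 3740 to 7540 CPM. The source of that RNA was not tested. In bulk RNA fewer cells that express a gene and less RNA per cell cannot be told apart. Nothing in the labels says whether the paired pools shared mice, and p-values measure the spread between these pools.

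Of the 10 retinoid genes, Gprc5c differed most between the populations, with a mean of 3.20 ± 1.43 CPM on the CD38-positive side and 0.458 ± 0.456 CPM on the other (SD, n = 3 each). Rdh10 came next, at 16.1 ± 6.45 and 8.49 ± 2.55 CPM (SD, n = 3 each). With edgeR, 0 of the 10 genes reached an adjusted p-value under 0.05, adjusted across the 14785 genes tested, of which 0.0135% did. At an unadjusted edgeR p-value under 0.05 there were 2 of 10, Gprc5c and Rdh10, where 5.08% of all genes had one. Since the 10 genes were chosen with earlier results of these data known, such counts are a description and not an independent test. Both had higher fitted values in CD38-positive cells, as did 2.47% of all genes at that p-value. DESeq2 likewise called 0 of the 10 after adjustment and gave the same genes an unadjusted p-value under 0.05. For the enzymes Aldh1a1, Aldh1a7 and Cyp26b1 and all 5 receptors the 95% interval of the log2 fold change included 0. Fitted values were higher in CD38-positive cells for 5 of the 10 genes, against 50.1% of all genes. The same sign in 3 of 3 pairs was found for 3 of the 10, against 24.5%, and groups without overlap for 2 of the 10, Gprc5c and Aldh1a1, against 6.53%. The median log2 fold change of the 10 genes was 0.07, against 0 for all genes.

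**Figure D1:**
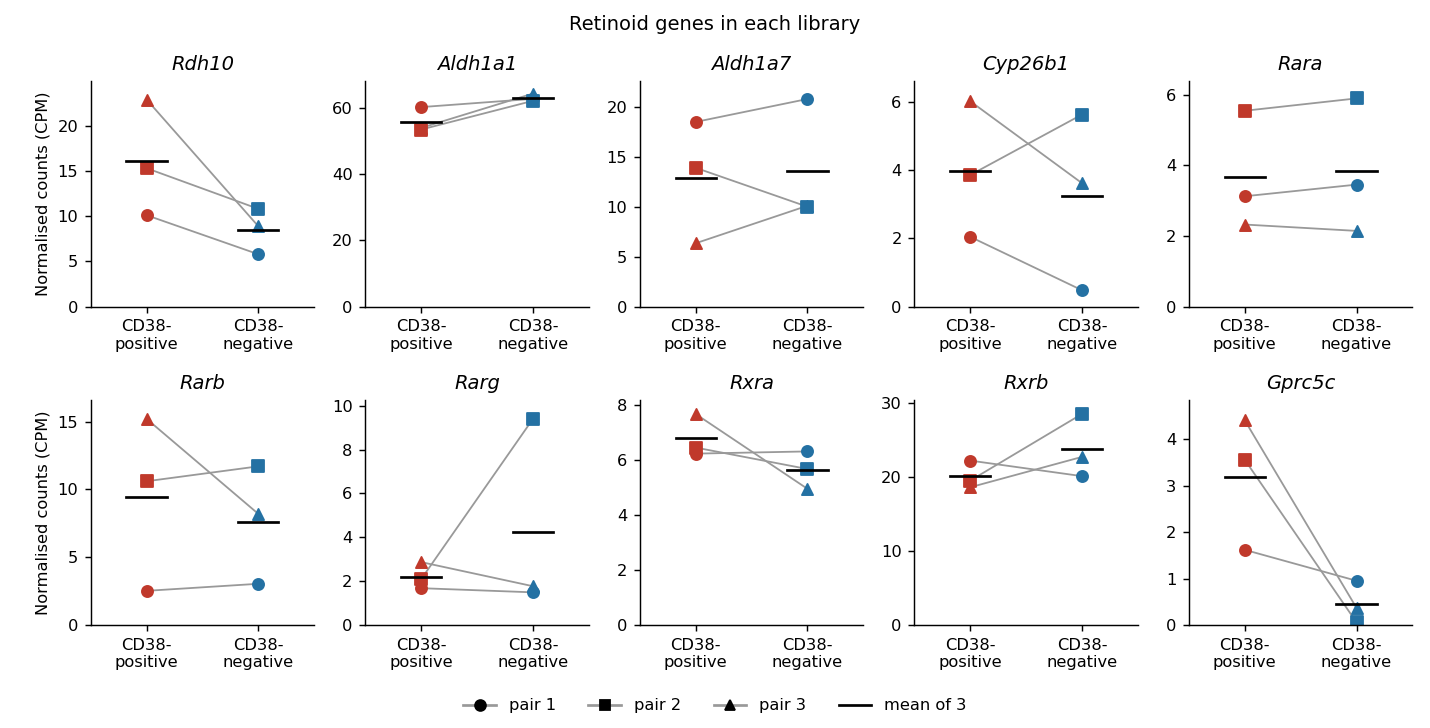
Normalised counts (CPM, linear axes from 0) of the 10 retinoid genes in each of the 6 libraries, with grey lines joining the libraries of a pair, symbols giving the pair and black bars the mean of 3 libraries. Gprc5c runs from 1.62 to 4.41 CPM in CD38-positive libraries and stays at or below 0.953 CPM in CD38-negative libraries, while the other panels except Aldh1a1 overlap.

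Rdh10 (ENSMUSG00000025921, GRCm38 chromosome 1, 16105774 to 16133734, plus strand) encodes the dehydrogenase of the first, rate-limiting oxidation of retinol. It was at 10.1, 15.3 and 22.9 CPM in CD38-positive replicates 1, 2 and 3, and at 5.78, 10.8 and 8.87 CPM in their CD38-negative partners. The CD38-positive library was the higher of its pair each time, but the groups overlapped, because CD38-positive replicate 1 lay below CD38-negative replicate 2. Between populations the fitted log2 fold change was 0.89 (SE 0.27, 95% interval 0.31 to 1.46), with an unadjusted edgeR p-value of 0.00516 and an adjusted p-value of 0.893. By pair the log2 differences were 0.79, 0.49 and 1.36. All 3 pairs thus had the same sign, as did 13.2% of all tested genes in this direction. Without pair 3 the fitted value was 0.64, and its unadjusted edgeR p-value was 0.0788.

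Aldh1a1 (ENSMUSG00000053279, chromosome 19, 20492715 to 20643465, plus strand) makes retinoic acid from retinaldehyde and is widely used as a stem cell marker through its enzyme activity. It was the most abundant of the 10 genes per length and also the steadiest. Its level was 60.4, 53.6 and 54.1 CPM in the CD38-positive and 62.9, 62.3 and 64.5 CPM in the CD38-negative libraries. All CD38-positive values lay below all CD38-negative values, by a small margin. Such separation with CD38-positive cells lower was seen for 3.19% of all tested genes. The log2 fold change of -0.18 (SE 0.19, 95% interval -0.58 to 0.23) had an edgeR adjusted p-value of 0.943, so the interval leaves room for a fold change of no more than 0.58 downwards on the log2 scale.

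Aldh1a7 (ENSMUSG00000024747, chromosome 19, 20692953 to 20727562, minus strand) is a neighbouring paralog of Aldh1a1 found in rodents, whose part in retinoid metabolism is less clear. The upstream sequences show how close the copies are, and are printed for that reason (RefSeq, GRCm38.p6, 120 bases ending at a transcript start). Capitals mark the 105 of 120 bases that both share when aligned at the start, 87.5%. The Aldh1a1 sequence is chr19:20601848-20601967 on the plus strand, upstream of the inner of its annotated starts, and the Aldh1a7 sequence is chr19:20727557-20727676 on the minus strand. That Aldh1a1 start was taken because its upstream sequence matched Aldh1a7 best, so the identity given is the highest among its starts.
Aldh1a1: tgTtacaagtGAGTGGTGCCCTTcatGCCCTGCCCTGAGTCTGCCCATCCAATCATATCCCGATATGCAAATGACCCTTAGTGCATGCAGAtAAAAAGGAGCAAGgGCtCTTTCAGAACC
Aldh1a7: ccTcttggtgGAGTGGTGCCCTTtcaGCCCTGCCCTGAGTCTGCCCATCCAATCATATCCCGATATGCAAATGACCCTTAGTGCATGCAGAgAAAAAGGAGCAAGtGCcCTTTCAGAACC

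Transcripts of the paralogs were compared by exact shared windows, a measure that cannot be set against the identity of bases given for the upstream stretches. Of the 50-base windows in Aldh1a7 transcripts, 7.49% also occur in Aldh1a1 transcripts, and of the 100-base windows 0.0508% do. The per-library pattern of Aldh1a7 was not that of Aldh1a1. It was at 18.5, 13.9 and 6.34 CPM in the CD38-positive and 20.8, 10.0 and 10.1 CPM in the CD38-negative libraries. Both libraries of pair 1 were high, and the populations overlapped. The fitted difference was -0.12 on the log2 scale (SE 0.28, edgeR adjusted p = 0.968). Single pairs gave -0.17, 0.47 and -0.67, and without pair 3 the fitted sign changed, to 0.15.

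Cyp26b1 (ENSMUSG00000063415, chromosome 6, 84571414 to 84593908, minus strand) encodes the retinoic acid-degrading enzyme that has been tied to HSC dormancy. Its level was 2.04, 3.85 and 6.01 CPM in the CD38-positive and 0.476, 5.62 and 3.61 CPM in the CD38-negative libraries. The lowest and the second highest of the 6 values were both in CD38-negative libraries, so the groups overlapped. Across pairs the log2 differences were 1.86, -0.53 and 0.72, and the fitted value was 0.59 (SE 0.45, 95% interval -0.38 to 1.56, edgeR adjusted p = 0.932). The result turned on single pairs: the fitted log2 fold change was 0.09 without pair 1 and 1.23 without pair 2, where its unadjusted edgeR p-value was 0.0144 and the adjusted one 0.948. In reads, pair 1 had 34 in CD38-positive and 8 in CD38-negative cells, a ratio of 4.28 with a 95% counting interval of 1.94 to 10.7. In pair 2 the reads were 68 and 101, a ratio of 0.685 (0.496 to 0.941). Reads of its relatives Cyp26a1 and Cyp26c1 were 1 and 0 over all 6 libraries, so Cyp26b1 was the 1 member of the family with a measurable level.

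**Figure D2:**
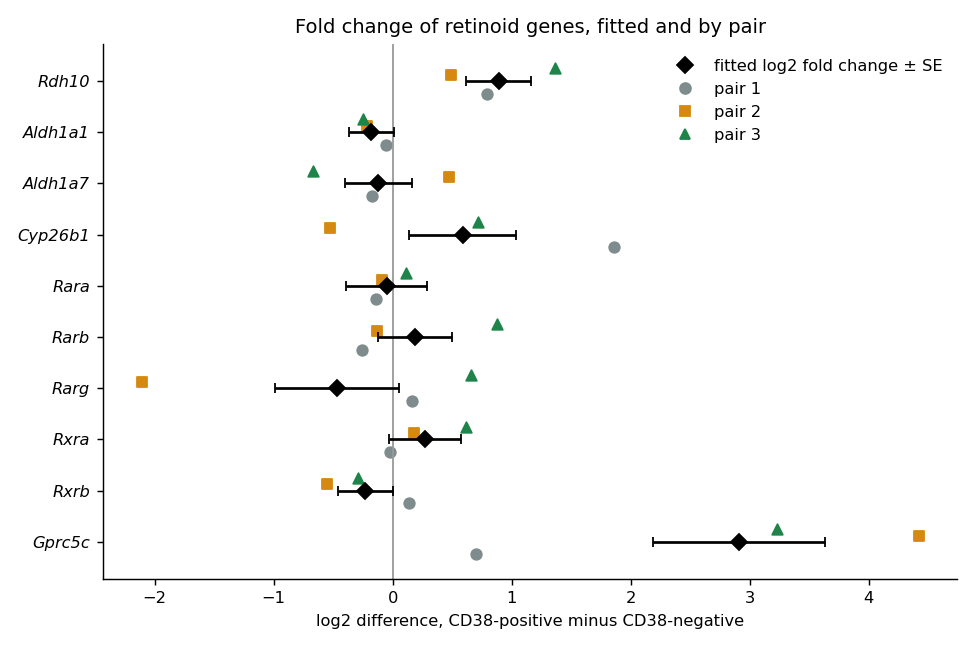
Log2 difference of CD38-positive minus CD38-negative cells for the 10 genes: black diamonds are the edgeR fit with its standard error, coloured symbols the single pairs (log2 CPM with a prior count of 2). Gprc5c and Rdh10 lie to the right of 0 in all 3 pairs and Aldh1a1 to the left, and Rarg and Cyp26b1 have pairs on both sides.

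The 3 retinoic acid receptors were all expressed at low levels. Rara (ENSMUSG00000037992, chromosome 11, 98927818 to 98974942, plus strand), the receptor rearranged in acute promyelocytic leukaemia, was at 3.12, 5.54 and 2.32 CPM in the CD38-positive and 3.45, 5.89 and 2.14 CPM in the CD38-negative libraries. Libraries of a pair were nearly equal, and the spread lay between pairs. The log2 fold change was -0.05 (SE 0.34, 95% interval -0.77 to 0.68, edgeR adjusted p = 0.990), and it was 0.01 without pair 1.

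Rarb (ENSMUSG00000017491, chromosome 14, 16430839 to 16819156, minus strand) is both a receptor and a classical target of the pathway, since retinoic acid induces it through an element in its own promoter. That element consists of a pair of hexamers spaced by 5 bases. It is printed as the element that lies before this transcript start (RefSeq, GRCm38.p6, chr14:16575477-16575596, minus strand, the 120 bases before the transcript start). The annotated gene reaches further upstream, to 16819156, and its counts take in transcripts from any start. Rarb counts are therefore no direct readout of retinoic acid. Capitals mark the hexamers.
Rarb: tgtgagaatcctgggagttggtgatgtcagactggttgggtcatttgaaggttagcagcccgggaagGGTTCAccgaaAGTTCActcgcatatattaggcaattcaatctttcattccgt

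The match runs from 53 to 37 bases before the start. It was found by searching both strands for pairs of hexamers in the same direction with a spacer of 5 bases (named DR5). Each hexamer could be the form AGGTCA, or its variant AGTTCA, or the variant GGGTCA, or the variant GGTTCA. Windows reached from 250 bases before to 50 after a start. Of 32851 such promoter windows, 32 held a DR5, which is 0.0974%. Among the 15 windows of the 8 retinoid genes with an entry, Rarb had the 1 match, and with spacers of 1 or 2 bases there was none, against 0.222% and 0.268% of all windows. Gprc5c and Rdh10 were the genes without an entry. A match describes the letters only.

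Rarb was at 2.52, 10.6 and 15.2 CPM in the CD38-positive and 3.04, 11.7 and 8.19 CPM in the CD38-negative libraries. Both libraries of pair 1 were low and those of pairs 2 and 3 higher, whereas the populations overlapped. Its log2 fold change was 0.19 (SE 0.31, 95% interval -0.47 to 0.85, edgeR adjusted p = 0.958), and pairs 1, 2 and 3 had -0.26, -0.13 and 0.88. Without pair 3 the fitted value was -0.20. Exons of Top2b, on the opposite strand, overlap 1793 of the 5265 exon bases of Rarb, and the strand setting of the counting is not given in the sources used here, so reads from that stretch may be missing or misassigned.

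Rarg (ENSMUSG00000001288, chromosome 15, 102234938 to 102257517, minus strand), the receptor whose loss reduces HSC numbers in mice, was at 1.68, 2.09 and 2.87 CPM in the CD38-positive libraries. Of the CD38-negative libraries, replicates 1 and 3 were at 1.49 and 1.77 CPM, and replicate 2 stood apart at 9.40 CPM, with 169 reads where the other 5 libraries had 25 to 52. The fitted log2 difference of -0.47 (SE 0.52, edgeR adjusted p = 0.943) was -1.11 without pair 3, with an unadjusted edgeR p-value of 0.0357, and 0.43 without pair 2. CD38-negative replicate 2 also had the highest summed level of HSC markers, 2710 CPM against 1250 to 2110 CPM in the others, with Kit at 556 CPM against 110 to 227 CPM. The part of that in the Rarg value was not tested.

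The RXR partners, which pair with RARs and with other nuclear receptors, were steadier. Rxra (ENSMUSG00000015846, chromosome 2, 27676440 to 27762957, plus strand) was at 6.23, 6.45 and 7.67 CPM in the CD38-positive and 6.31, 5.67 and 4.95 CPM in the CD38-negative libraries. The overlap came from pair 1, where CD38-negative cells had slightly more. Its log2 fold change was 0.27 (SE 0.30, 95% interval -0.37 to 0.90, edgeR adjusted p = 0.943). Rxrb (ENSMUSG00000039656, chromosome 17, 34031812 to 34038399, plus strand) was at 22.2, 19.5 and 18.6 CPM in the CD38-positive and 20.1, 28.5 and 22.7 CPM in the CD38-negative libraries. The groups overlapped here too, with a fitted log2 value of -0.23 (SE 0.23, 95% interval -0.73 to 0.26, edgeR adjusted p = 0.936). The third partner, Rxrg, had 14 reads in all, 12 of them in CD38-positive replicate 2, and was not tested.

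Gprc5c (ENSMUSG00000051043, chromosome 11, 114851152 to 114872617, plus strand) was counted with 27, 63 and 80 reads in the CD38-positive libraries of pairs 1, 2 and 3. The matched CD38-negative libraries gave 16, 1 and 6. As normalised counts these were 1.62, 3.56 and 4.41 CPM against 0.953, 0.0556 and 0.367 CPM. Every CD38-positive library lay above every CD38-negative one, as for 3.33% of all tested genes, and the value of CD38-negative replicate 2 is below the level of 3 reads. The fitted log2 fold change was 2.91 (SE 0.72, 95% interval 1.37 to 4.45), a 7.49-fold difference. Among the 14785 genes it ranked 25 by p-value, with an unadjusted edgeR p-value of 0.00121 and an adjusted p-value of 0.695. With 1 and 6 reads in CD38-negative replicates 2 and 3, Gprc5c passed the filter on low counts through its CD38-positive libraries. Its separation and rank among tested genes are therefore a description and no independent support.

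The size of the Gprc5c difference depended on the pair. In pair 1 the CD38-positive level was 1.70 times the CD38-negative one (95% counting interval 0.883 to 3.37), in pair 2 it was 64.1 times (11.1 to 2570), resting on a single CD38-negative read, and in pair 3 it was 12 times (5.29 to 33.8). The interval of pair 1 includes a ratio of 1, whereas those of pairs 2 and 3 lie above it. Without pair 1 the fitted log2 fold change was 4.34, without pair 2 it was 2.06, and without pair 3 it was 2.50, with edgeR adjusted p-values of 0.112, 0.307 and 0.265. The call depended on the filter on low counts. With no filter, when 26504 genes were tested, the log2 fold change was again 2.91 but the edgeR adjusted p-value was 1.49e-05, and DESeq2 with the filter gave 3.14 with an adjusted p-value of 0.075.

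Markers of other cells are set beside Gprc5c, because some differed in the same direction in all pairs. The summed level of 11 monocyte and dendritic cell markers was 286 to 403 CPM in CD38-positive and 236 to 324 CPM in CD38-negative libraries, and it was the higher in 3 of 3 pairs. All 11 had reads, with Itgax at 0 in CD38-negative replicate 3. The 11 B and plasma cell markers were at 333 to 1040 and 1190 to 3530 CPM, lower in CD38-positive cells in 3 of 3 pairs, and all 11 had reads in every library. Of these, 4 were fitted higher and 7 lower, and 1 passed the adjusted threshold. It was the antibody gene Igha, at a log2 value of -4.4 (SE 0.46, edgeR adjusted p = 0.00246), which ranked 1 by p-value. Igha was lower in 3 of 3 pairs, but its groups overlapped.

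Endothelial, stromal and megakaryocyte markers were mixed. The 9 endothelial markers summed to 107, 129 and 190 CPM in the CD38-positive and 106, 151 and 137 CPM in the CD38-negative libraries, so the sum was lower in CD38-positive cells in pair 2. Of the 8 tested, 6 were fitted higher and 2 lower. Ramp2, Stab2 and Cldn5 had log2 values of 2.20, 0.93 and 1.42, each with an unadjusted edgeR p-value under 0.05. Each was higher in 3 of 3 pairs, and the groups were apart for Ramp2 and Stab2 but not for Cldn5. Pecam1, with the highest mean level of the list, had 0.31 and was higher in 3 of 3 pairs with groups apart. Plvap had 1.01, with an unadjusted edgeR p-value of 0.0526. The 2 fitted lower were Tek and Emcn, at -0.54 and -0.37. Cdh5, the defining endothelial cadherin, had 12, 5 and 5 reads in the CD38-positive and 6, 2 and 0 in the CD38-negative libraries. It was thus higher in 3 of 3 pairs on few reads, and was not tested. The 9 stromal markers summed to 184, 22.9 and 140 CPM against 129, 29.4 and 33.8 CPM. Among them Sparc, a matrix protein, had a log2 value of 1.82 (SE 0.33, edgeR adjusted p = 0.125), higher in 3 of 3 pairs with groups apart. The 7 megakaryocyte markers summed to 287, 165 and 169 CPM against 174, 187 and 170 CPM.

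Vwf, which megakaryocytes, endothelium and some HSCs express, had 1.15 on the log2 scale (SE 0.24, edgeR adjusted p = 0.293) and was also higher in 3 of 3 pairs with groups apart. Of the 14 HSC markers 5 were fitted higher and 9 lower. In 3 of 3 pairs, 2 were higher and 3 lower. The higher were Slamf1, which encodes CD150, at 0.45 (SE 0.23), and Cd38, whose product the sort selected. Ly6a, which encodes Sca-1, was lower, at -0.5 (SE 0.23, edgeR adjusted p = 0.926). The stem cell transcription factor genes Hlf and Meis1 were among the lower, at -0.79 (SE 0.27) and -0.63 (SE 0.23), with edgeR adjusted p-values of 0.925 for both. Their log2 differences in pairs 1, 2 and 3 were -0.38, -1.76 and -0.26 for Hlf and -0.66, -1.22 and -0.01 for Meis1. Both were thus largest in pair 2, and that of Meis1 in pair 3 was close to none. Apart from Igha, none of the named markers passed the adjusted threshold. The part of all these markers in the Gprc5c difference was not tested.

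The relatives of Gprc5c did not share its pattern of levels. Gprc5b, the family member with the highest level per length, was at 3.24, 3.34 and 7.34 CPM in the CD38-positive and 3.33, 9.12 and 7.28 CPM in the CD38-negative libraries (log2 fold change -0.49, SE 0.35, edgeR adjusted p = 0.932). Gprc5a, a classical retinoic acid-induced gene, had a log2 value of 0.18 (SE 0.56, edgeR adjusted p = 0.978) on 9 to 34 reads per library. Gprc5d had 1 read in all. No 50-base window of Gprc5c transcripts occurs in those of Gprc5a or Gprc5b.

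Across the 6 libraries, the log2 CPM profile of Gprc5c was most like those of Paxip1, Anks3, Pla2g7, Mdm2 and Vps35, with Pearson r of 0.991, 0.990, 0.987, 0.985 and 0.980. With only 6 libraries and 13539 genes compared, 119 genes had an r above 0.9, so these values describe the libraries and carry no test. All 5 were higher in CD38-positive cells in 3 of 3 pairs, a direction that picking by likeness to Gprc5c in the same libraries favours. Their fitted log2 fold changes were 0.41, 1.01, 0.71, 0.46 and 0.27, each smaller than that of Gprc5c. Within the retinoid genes the r with Gprc5c ranged from -0.92 for Rxrb to 0.78 for Rxra, and it was -0.02 for Cyp26b1 and 0.02 for Rarb.

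Levels of different genes were compared per kilobase of annotated exon. Aldh1a1 led with 12.1 ± 0.946 CPM per kb (SD over 6 libraries), followed by Aldh1a7 with 6.43 ± 2.67, Rxrb with 5.52 ± 0.9, Rdh10 with 2.95 ± 1.45 and Rarb with 1.62 ± 0.949 CPM per kb. Lower levels were found for Rxra at 1.14 ± 0.165, Rara at 0.858 ± 0.369, Rarg at 0.755 ± 0.72, Cyp26b1 at 0.673 ± 0.393 and Gprc5c at 0.349 ± 0.339 CPM per kb. Only the step from Aldh1a1 to Aldh1a7 was free of overlap between the 6 libraries of neighbours in this order. The steps from Aldh1a7 to Rxrb and from Rarg to Cyp26b1 were not resolved at all, since the order held in 3 of 6 libraries. With the longest transcript as length, Aldh1a1 was at 25.3 and Rxrb at 8.35 CPM per kb, and Rxrb then stood above Aldh1a7. Among the RARs, Rara had the highest level per kb in both libraries of pair 1 and Rarb in those of pairs 2 and 3, where CD38-negative replicate 2 had Rarg at nearly the level of Rarb.

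**Figure D3:**
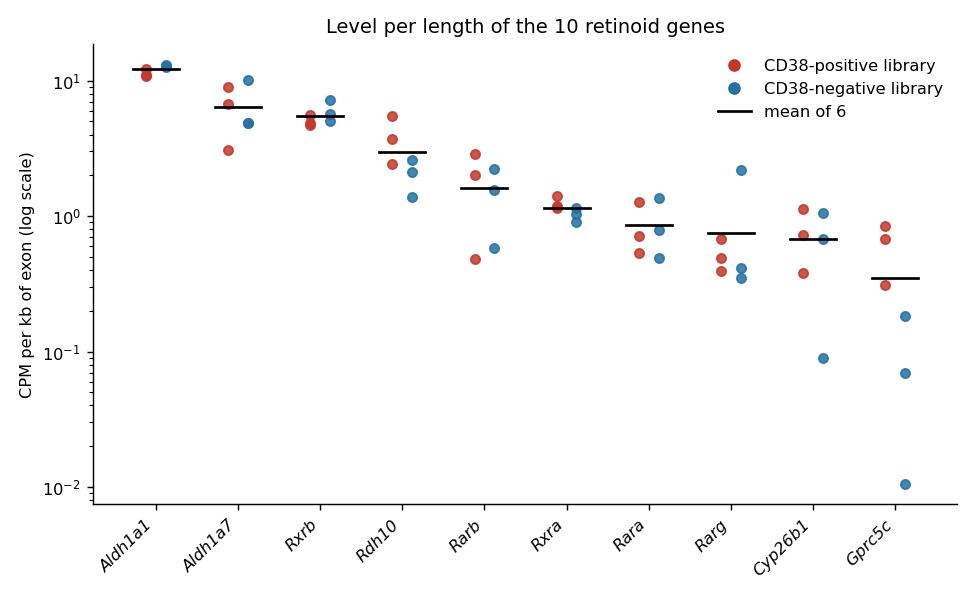
Level per length (CPM per kb of annotated exon, logarithmic axis) of the 10 genes in each CD38-positive (red) and CD38-negative (blue) library, ordered by the mean of 6 libraries (black bars). Aldh1a1 stands above all others in every library, and Gprc5c has the lowest mean, 0.349 CPM per kb, with its populations apart.

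The wider pathway was examined through 91 genes in 7 lists that overlap in part and were also chosen with earlier results known. Of these, 84 had at least 1 read and 60 were tested, and edgeR and DESeq2 each called 0 of the 60 after adjustment. In edgeR, 5 had an unadjusted p-value under 0.05 with higher and 1 with lower fitted values in CD38-positive cells, against 2.47% and 2.61% of all genes. Among the 5 was Cd38, whose product the sort selected, so that count is not independent of the gate. DESeq2 gave 4 genes an unadjusted p-value under 0.05. The median log2 fold change of the 60 genes was -0.03, with 27 fitted higher and 33 lower.

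Of 29 enzyme genes 18 were tested, with a median log2 fold change of -0.03, 8 fitted higher and 10 lower. Cyp1b1, a cytochrome P450 that can oxidise retinoids among other substrates, had 44, 5 and 54 reads in the CD38-positive and 23, 0 and 2 reads in the CD38-negative libraries. It was higher in 3 of 3 pairs, but the groups overlapped, and pair 2 had almost no reads. The log2 fold change was 2.46 (SE 0.76), with an unadjusted edgeR p-value of 0.00572 and an adjusted p-value of 0.893. Cyp1b1 also joined Gprc5c past the adjusted threshold when no filter was used. The most abundant enzyme gene per length was Adh5, a broadly expressed alcohol dehydrogenase, at 30.8 CPM per kb and a log2 fold change of -0.03 (SE 0.19). The other retinaldehyde dehydrogenases Aldh1a2 and Aldh1a3 had at most 11 reads in any library and were not tested.

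Most transport genes had too few reads for a test, and 3 of 14 were tested. Fabp5, which can carry retinoic acid to the nucleus, had a fitted log2 difference of 0.44 (SE 0.25, edgeR adjusted p = 0.926). Lrp1, an endocytic receptor, had the largest difference of the 3, 0.55 (SE 0.36, edgeR adjusted p = 0.929). The retinoic acid-binding proteins Crabp1 and Crabp2 had 1 and 2 reads in all, and the retinol importer Stra6 had 4.

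Of the nuclear receptors that share RXR as a partner, 10 of 13 were tested, 5 fitted higher and 5 lower, with a median of 0.05. Pparg, the fatty acid-sensing receptor of fat cells and macrophages, was at 7.25, 8.66 and 6.68 CPM in the CD38-positive and 5.12, 5 and 3.97 CPM in the CD38-negative libraries. The groups did not overlap, and the log2 fold change was 0.68 (SE 0.29), with an unadjusted edgeR p-value of 0.0346 and an adjusted p-value of 0.926. Ppard had the largest value downwards, -0.84 (SE 0.59, edgeR adjusted p = 0.930), on 4 to 17 reads. The liver X receptor gene Nr1h2 was the most abundant, at 15.7 CPM per kb, with -0.09 (SE 0.20).

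All 17 coregulator genes were tested, 5 fitted higher and 12 lower, with a median of -0.05. Gps2, a subunit of the corepressor complex, was the most abundant at 24.5 CPM per kb (log2 fold change 0.11, SE 0.20). Prmt1, an arginine methyltransferase that acts as a coactivator, had the largest difference, -0.65 (SE 0.34, edgeR adjusted p = 0.926). CD38-negative replicate 2 stood apart at 51.4 CPM, where the other 5 libraries ran from 14.3 to 23.8 CPM.

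Of 19 genes known to be induced by retinoic acid in some cell type, 11 were tested, 8 fitted higher and 3 lower, with a median log2 fold change of 0.19. Besides Gprc5c, an unadjusted edgeR p-value below 0.05 was found for Cd38 and Cebpe. Cd38, the sorted marker and itself a retinoic acid target in myeloid cells, was at 37.0, 46.3 and 58.3 CPM in the CD38-positive and 24.2, 35.6 and 23.9 CPM in the CD38-negative libraries (log2 fold change 0.76, SE 0.23, edgeR adjusted p = 0.893). Its groups did not overlap, and the gate selected on its product. Without pair 2, Cd38 was the 1 pathway gene past the adjusted threshold. Cebpe, a granulocyte transcription factor, was lower in CD38-positive cells in 3 of 3 pairs, at 52.2, 38.2 and 69.7 against 52.5, 73.9 and 93.9 CPM. Its log2 fold change was -0.46 (SE 0.21), with an unadjusted edgeR p-value of 0.0490 and an adjusted p-value of 0.926. It also belongs to the granulocyte markers, whose sum was higher in the CD38-positive library of pair 1 (161000 against 116000 CPM) and lower in pairs 2 and 3 (71100 against 80600 and 93100 against 129000 CPM). Cebpe had log2 differences of -0.01, -0.95 and -0.43 in these pairs, and the part of granulocyte RNA in them was not tested. Among other textbook targets, Cyp26a1 and Stra8 had 1 read each. Tgm2, which encodes a transglutaminase, had 0.26 (SE 0.21, edgeR adjusted p = 0.932) at 32.4 CPM per kb, and Dhrs3, a retinaldehyde reductase, had 0.03 (SE 0.24, edgeR adjusted p = 0.992).

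**Figure D4:**
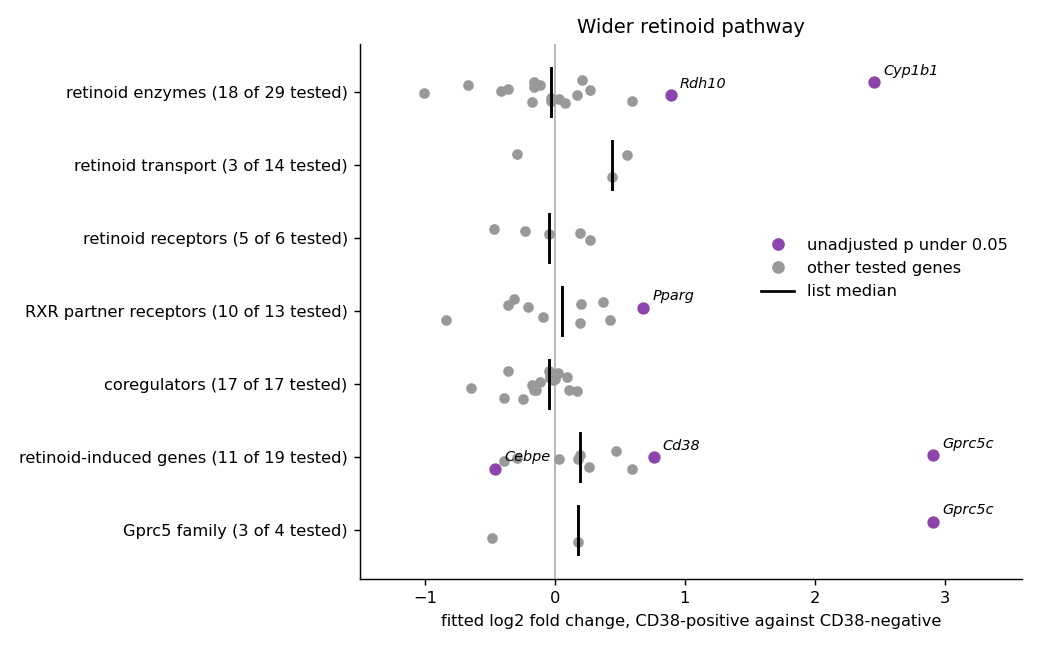
Fitted log2 fold change (CD38-positive against CD38-negative) of each tested gene in the 7 retinoid pathway lists, with purple points for an unadjusted edgeR p-value under 0.05 and black bars for list medians. The medians lie between -0.05 and 0.44, and Gprc5c at 2.91 and Cyp1b1 at 2.46 are the farthest from 0.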

How the data were processed

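The authors deposited 1 table of raw counts by Ensembl gene for every library (6 in all); cutadapt, STAR, HTSeq 0.6.1p1 and GRCm38 (mm10) are named, without roles, per the submitters' processing notes, and the strand setting and annotation release are not given in the sources used here. Symbols came from a table that matched 49326 of 49585 identifiers, and coordinates, exon lengths and overlaps from GENCODE M21 (GRCm38). Genes kept by filterByExpr (14785) were tested in R 4.3.3 with edgeR 4.0.16 (quasi-likelihood, TMM, pair as a block) over all genes, with Benjamini-Hochberg adjustment. Standard errors are the fold change over the root of its quasi-F value, intervals are 95%, and CPM uses TMM-scaled library sizes. Pair differences and profiles used log2 CPM with a prior count of 2. Ratios of reads have exact binomial intervals, which cover counting error only, since reads are not independent molecules.

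The pairs come from the design text. Libraries of pairs 1, 2 and 3 deviated together from the means of their populations (r of 0.34, 0.12 and 0.24). Within a population no libraries were duplicates: chi-square over its degrees of freedom was 51.4 to 116. Libraries of different populations were not compared in this way. The fit was tested on simulated data. Alternatives were no block, DESeq2 1.42.0, other scalings, other filters and leaving out each pair. The 10 genes and the lists were chosen with earlier results of these data known. Named besides them, by rule, were Cd38, the 5 genes most like Gprc5c (mean of at least 1 CPM), and, from each list, genes with an unadjusted p-value under 0.05, the highest level per kb and the largest fold change. Rxrg, Gprc5a, Gprc5d, Fabp5, Tgm2, Dhrs3, Kit and the other named marker genes, and the listed genes with few reads were named after their values were seen. Not every gene that the rule names is reported here.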

Additional observations from a re-analysis of the deposited data

How the results depend on the processing

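For the 10 retinoid genes, 85 of 90 alternative values kept their direction and their side of the adjusted threshold, 4 changed sign and 1 passed it. The pass was Gprc5c with no filter on low counts, at 2.91 (edgeR adjusted p = 1.49e-05), and its adjusted p-value was 0.994 without the replicate block, where the log2 fold change was 2.80. The block changed no call among the 10 genes. Signs changed when 1 pair was left out: Rara ranged from -0.12 to 0.01, Rarb from -0.20 to 0.38, Rarg from -1.11 to 0.43 and Aldh1a7 from -0.42 to 0.15. Over all genes, 2 passed with the block and 0 without the replicate block (417 at an unadjusted p under 0.05), 0 when library totals were left unscaled (595 at that p), 7 with DESeq2 size factors, 7 at an adjusted p of 0.1, 11 with DESeq2, 13 with a mean of at least 10 counts and 80 with no filter; leaving out a pair gave 2 to 41, with 41 without pair 2 and 12 without pair 3. With the longest transcript as length, Aldh1a1 was at 25.3, Rxrb at 8.35 and Rarb at 2.75 CPM per kb. The cause was not tested. Levels under 3 reads, at most 0.183 CPM, were not measurable at this depth, which limits Gprc5c in CD38-negative replicate 2.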
